A study of Homo sapiens with 4 samples.

Results

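Genes of the machinery that detects nucleic acids in the cytosol were followed across 4 RNA sequencing libraries of HEK293A cells. The 10 members are the DNA sensors CGAS, IFI16 and DDX41, the RNA sensor IFIH1, the adaptors STING1, MAVS and TICAM1, the kinases TBK1 and IKBKE, and the transcription factor IRF3. They were chosen by name, with earlier results of these data known. Each was matched through its Ensembl identifier, so that 10 of 58736 listed features are described. 8 members reached 1 FPKM (reads scaled to exon length in kilobases and to library size) in at least 2 libraries and were tested, while CGAS and IFI16 did not reach it in any library and are given by their reads.

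HEK293A is an established human embryonic kidney epithelial line, a relative of HEK293 cells that were transformed with adenoviral DNA. All 4 libraries came from cells transfected with 1 µg of FEN1 plasmid per well, FEN1 being a flap endonuclease, and 48 h later with 500 pmol of DNA probes. The groups were a negative control (replicates 1 and 3) and the probe NT1_hp2 (replicates 2 and 3), so cells without plasmid or without probe were not analysed here. Neither the gene that NT1_hp2 addresses nor the probe of the negative control is given in the sources used here. The labels do not state whether replicates are separate cultures, and the p-values reflect only how these 4 libraries vary, possibly for technical reasons. Library totals were 12506203 to 14908687 recovered reads. Of 11 epithelial and embryonic kidney markers, 5 stayed under 1 FPKM in every library, among them EPCAM and CDH1, whereas the keratin gene KRT8 ranged from 84.2 to 112 FPKM. All 10 macrophage and monocyte markers were under 1 FPKM in every library and 3 of them were at 0 throughout, among them PTPRC, with a summed level of 0.954 to 1.31 FPKM in the negative control and 0.931 to 1.12 FPKM in NT1_hp2. The summed epithelial markers ranged from 206 to 229 FPKM in the control and from 171 to 172 FPKM in NT1_hp2, with KRT18 and SIX2 lower. Of the 6 epithelial markers that were tested as described below, 2 passed as lower and 0 as higher. Over all tested genes 8.92% and 5% did. The 7 lymphoid markers summed to 3.08 to 3.21 FPKM in the control and 1.99 to 2.29 FPKM in NT1_hp2. Of these, 5 were under 1 FPKM in every library, with CD3E at 0. The other 2 were tested and neither passed, but both were lower in both NT1_hp2 libraries, as were 34.8% of all tested genes. The 7 fibroblast markers summed to 14.6 to 14.7 FPKM in the control and 13.7 to 14.2 FPKM in NT1_hp2. Of 3 tested fibroblast markers 0 passed. All 6 endothelial markers were under 1 FPKM in every library. The part of these markers in the members' differences was not tested.

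Cytosolic DNA is bound by cGAS, the product of CGAS, which makes the cyclic dinucleotide cGAMP. The messenger binds STING on the endoplasmic reticulum, and STING then recruits the kinase TBK1, which phosphorylates the transcription factor IRF3 and so switches on interferon genes. Long double-stranded RNA is bound by MDA5, the product of IFIH1, which signals through MAVS on mitochondria to the same kinases, and TICAM1 encodes TRIF, the adaptor that links the endosomal receptor TLR3 to them. DNA delivered by transfection is a classic trigger of the cGAS and STING route in cells that possess it.

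The line held mRNA for the adaptors, for TBK1 and for IRF3, but next to none for the sensor CGAS. CGAS (ENSG00000164430, chromosome 6, 73413515 to 73452276, GRCh38) had 4 reads in replicate 1 and 1 read in replicate 3 of the negative control, and 4 reads in each NT1_hp2 library. Its levels were 0.0669 and 0.0192 FPKM in the control and 0.0682 and 0.0678 FPKM in NT1_hp2, where 3 reads correspond to 0.0501 to 0.0575 FPKM. Its mRNA was therefore at the limit of detection, and this depth does not show that it is absent. The ratio of summed reads in NT1_hp2 to control was 1.52, with a 95% exact binomial interval of 0.439 to 5.92 that covers counting error only. IFI16, which encodes a PYHIN family DNA-binding protein, had 15 and 21 reads in the control and 17 and 35 in NT1_hp2, or 0.197, 0.316, 0.227 and 0.466 FPKM. Its 2 groups overlapped, and the read ratio was 1.38 (95% exact binomial interval 0.882 to 2.17). DDX41 was the sole DNA sensor among the members above 1 FPKM.

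By mean over the 4 libraries the order of the members, in FPKM on summed exon length, was MAVS (18.3), IRF3 (12.7), DDX41 (11.1), STING1 (10.96), TBK1 (10.6), TICAM1 (6.44), IKBKE (1.70), IFIH1 (1.51), IFI16 (0.301) and CGAS (0.0555). The ranges over the 4 libraries overlapped between IRF3 and DDX41, DDX41 and STING1, STING1 and TBK1, and IKBKE and IFIH1. These ranges span both groups and so include the difference between them. On this scale IRF3 was above DDX41 in every library, while the order of DDX41 and STING1 varied within each group. STING1 against TBK1, and IKBKE against IFIH1, were higher in both controls and lower in both NT1_hp2 libraries. The range of MAVS, 16.98 to 18.8 FPKM, began above the highest IRF3 value of 16.3 FPKM. The order depends on which length is used. With the length of 1 principal transcript per gene in place of all annotated exons, IRF3 came first at 27.8, then STING1 at 23.8, DDX41 at 19.3 and MAVS at 18.4, since the principal transcript of IRF3 has 1741 of 3794 exonic bases and that of MAVS 11714 of 11771. In the control, STING1 was above 82.6% of all protein-coding genes on the deposited scale, MAVS above 88.6%, IKBKE above 46.1% and CGAS above 20.4%.

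**Figure D1:**
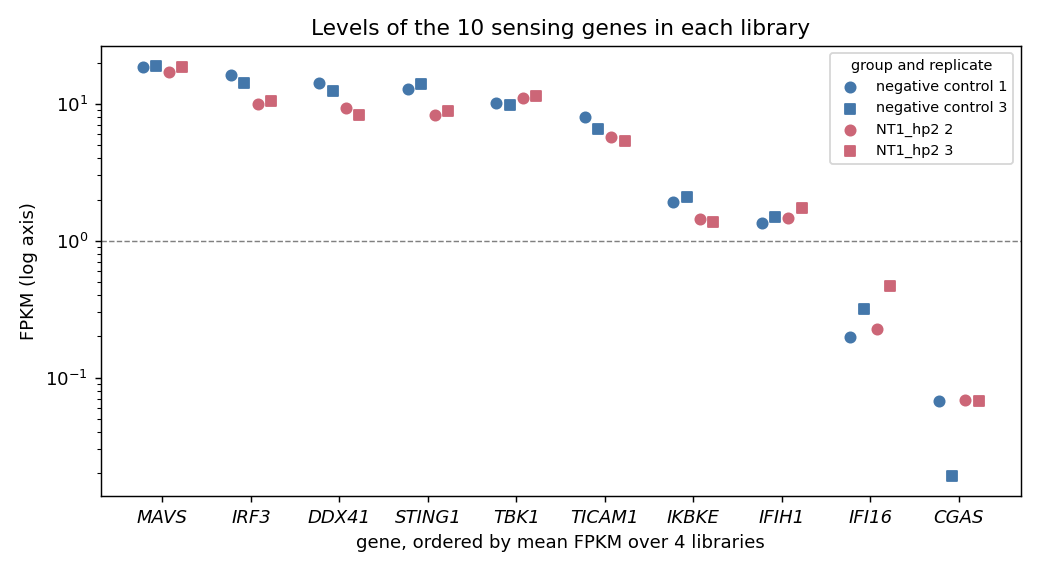
FPKM of each member in each library on a log axis, with circles and squares for the replicates of the negative control (blue) and NT1_hp2 (red), and a dashed line at 1 FPKM. CGAS and IFI16 lie below the line in all 4 libraries, and IRF3, DDX41 and STING1 are lower in both NT1_hp2 libraries than in both controls.

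Promoter sequences from RefSeq (GRCh38.p14) were found for 7 of the 10 members. CGAS, STING1 and IRF3 had no entry. The 250 bases before the RefSeq transcript start are shown for the RNA sensor IFIH1 as a classic interferon-inducible gene, for DDX41 as the member with both a changed level and an entry, and for TBK1 as a kinase gene that did not pass the test. The RefSeq start is not the end of the GENCODE gene given with each member below: the whole DDX41 window, most of the TBK1 window and a small part of the IFIH1 window lie inside those gene bounds. Capitals mark matches on either strand to GAAA, any 2 bases and GAAA again, the core of the interferon-stimulated response element (ISRE), and to the GC box GGGCGG.
IFIH1 (chr2:162318685-162318934, minus strand): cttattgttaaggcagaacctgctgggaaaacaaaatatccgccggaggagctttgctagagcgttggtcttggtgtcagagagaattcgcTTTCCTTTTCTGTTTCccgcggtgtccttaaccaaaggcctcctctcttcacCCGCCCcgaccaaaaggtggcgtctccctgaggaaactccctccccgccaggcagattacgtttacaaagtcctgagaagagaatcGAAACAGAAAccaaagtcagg
DDX41 (chr5:177516962-177517211, minus strand): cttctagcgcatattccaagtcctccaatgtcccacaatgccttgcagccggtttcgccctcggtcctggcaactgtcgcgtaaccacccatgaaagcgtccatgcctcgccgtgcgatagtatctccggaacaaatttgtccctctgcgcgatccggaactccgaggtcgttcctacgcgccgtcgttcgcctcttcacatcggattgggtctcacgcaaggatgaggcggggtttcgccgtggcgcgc
TBK1 (chr12:64451870-64452119, plus strand): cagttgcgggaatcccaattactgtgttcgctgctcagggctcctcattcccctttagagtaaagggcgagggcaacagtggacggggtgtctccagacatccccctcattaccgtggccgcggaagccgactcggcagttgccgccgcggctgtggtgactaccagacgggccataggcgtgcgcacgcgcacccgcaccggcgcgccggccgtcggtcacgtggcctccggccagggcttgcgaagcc
The IFIH1 stretch held 3 matches to the ISRE core, of which 2 overlap, and 1 GC box. No match to the ISRE core was found in the same window of the other 6 members with an entry, and 3.02% of 35116 promoters of that length held one. GC boxes were present in the windows of MAVS (2), TICAM1 (1) and IFIH1 (1), against 42.6% of all promoters. These are matches of letters only. The GC content of the window was 66.8% for TBK1, 59.6% for DDX41 and 51.2% for IFIH1, beside a median of 58% over all promoters.

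In cells given NT1_hp2, 3 members fell and no member rose. STING1 fell to 64.5% of its control level, DDX41 to 65.9% and IRF3 to 66.8%, while the kinase gene TBK1, the adaptor gene MAVS and the RNA sensor gene IFIH1 did not pass the test in either direction. The test was limma-trend on log2(FPKM + 1), a scale that understates the change of low genes, with Benjamini-Hochberg adjusted p under 0.05 over all 16362 tested genes. Over all tested genes 13.9% passed, 8.92% as lower and 5% as higher, so 3 of 8 tested members is read against that share. Of all genes that passed, 35.9% were higher in NT1_hp2, and this share was 53.6% when libraries were scaled to their totals. In bulk RNA, fewer cells that express a gene and less RNA per cell cannot be told apart. The 3 calls were not made without negative control replicate 1, NT1_hp2 replicate 2 or NT1_hp2 replicate 3, when 0, 0 and 0 members passed and 0, 5 and 13 of all genes did. Without negative control replicate 3 they held.

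Among the adaptors, STING1 (ENSG00000184584, chromosome 5, 139475534 to 139482935) was measured at 12.8 and 13.9 FPKM in the negative control and at 8.29 and 8.89 FPKM in NT1_hp2. Both NT1_hp2 libraries lay below both controls. STING1 differed by −0.58 on the log2 scale, with an SE of 0.077 and an adjusted p of 0.0340 by limma-trend. MAVS (chromosome 20, 3846799 to 3876123) had 18.7 and 18.8 FPKM in the control and 16.98 and 18.7 FPKM in NT1_hp2, so its groups overlapped. Its log2 difference was −0.07, with a 95% interval of −0.25 to 0.12, narrow enough to leave out a fall of the size seen for STING1. It had the most reads of any member, with 2780 to 3166 per library. TICAM1 (chromosome 19, 4815932 to 4831704) had 8.07 and 6.57 FPKM in the control and 5.74 and 5.37 FPKM in NT1_hp2. The groups did not overlap, yet the log2 difference of −0.34 (95% interval −0.62 to −0.05) did not pass (limma-trend adjusted p = 0.0970). It passed in 5 of 19 other settings, among them limma-voom on recovered reads (0.0292) and protein-coding genes alone (0.0191).

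DDX41, the DEAD-box helicase proposed as a DNA sensor and also known for its part in splicing, was at 14.3 and 12.5 FPKM in the negative control and at 9.33 and 8.29 FPKM in NT1_hp2. The gene lies on chromosome 5, 177511577 to 177517469. Every NT1_hp2 value was below every control value, and DDX41 differed by −0.55 on the log2 scale, with an SE of 0.097 and an adjusted p of 0.0376 by limma-trend. IFIH1 (chromosome 2, 162267079 to 162318703) stayed low, at 1.35 and 1.496 FPKM in the control and 1.47 and 1.74 FPKM in NT1_hp2. Its groups overlapped, the log2 difference was 0.10, and the 95% interval of −0.28 to 0.49 rests on 96 to 126 reads per library, which leaves room for changes of either sign.

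The kinases did not pass the test. TBK1 (chromosome 12, 64451880 to 64502108) had 10.1 and 9.84 FPKM in the control and 11.03 and 11.3 FPKM in NT1_hp2. Both NT1_hp2 values were the higher ones, with a log2 difference of 0.15 (95% interval −0.01 to 0.32, limma-trend adjusted p = 0.155). Its relative IKBKE, which encodes IKK-epsilon, had 1.92 and 2.08 FPKM in the control and 1.44 and 1.37 FPKM in NT1_hp2. The groups were apart and the log2 difference was −0.32 (95% interval −0.65 to 0.02, limma-trend adjusted p = 0.149), on 74 to 105 reads per library. The call was made for IKBKE among protein-coding genes alone (adjusted p = 0.0340), when 5 of 8 members fell and 24.2% of all tested genes did.

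IRF3 (ENSG00000126456, chromosome 19, 49659569 to 49665875), the factor at the end of the relay, had 16.3 and 14.3 FPKM in the negative control and 9.97 and 10.5 FPKM in NT1_hp2. The groups were apart. IRF3 differed by −0.54 on the log2 scale, with an SE of 0.084 and an adjusted p of 0.0350 by limma-trend. Of its exonic bases 19.3% are shared with BCL2L12 on the opposite strand, and the library kit does not mark strand. BCL2L12 was listed at 21.4 and 19.8 FPKM in the control and at 12.05 and 11.8 FPKM in NT1_hp2, and how reads of the shared bases were divided was not tested. STING1, DDX41, TICAM1, MAVS, IFIH1 and IFI16 share no exonic base with another annotated gene.

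Of the 8 tested members, 5 had both NT1_hp2 libraries below both controls and 1, TBK1, had both above, beside 34.8% and 32% of all tested genes. Ratios to TBK1 within a library do not depend on library scaling, but they carry the higher TBK1 values of both NT1_hp2 libraries. IRF3 was 1.61 and 1.45 times TBK1 in the control and 0.903 and 0.921 times TBK1 in NT1_hp2. STING1 was 1.26 and 1.41 times TBK1 in the control and 0.752 and 0.784 times in NT1_hp2. DDX41 went from 1.41 and 1.27 times to 0.846 and 0.731 times TBK1. MAVS over TBK1, at 1.85 and 1.91 in the control and 1.54 and 1.65 in NT1_hp2, and TICAM1 over TBK1, at 0.8 and 0.668 against 0.520 and 0.473, were also apart, although MAVS itself overlapped between groups. In FPKM on summed exon length, STING1, IRF3 and DDX41 exceeded TBK1 in both controls and were below it in both NT1_hp2 libraries. With principal transcript lengths, IRF3 (21.7 and 22.8) and STING1 (18.0 and 19.3) stayed above TBK1 (16.1 and 16.6) in NT1_hp2. DDX41 was then above TBK1 in NT1_hp2 replicate 2 (16.2) and below it in replicate 3 (14.4). With 2 libraries a group the smallest p of an exact two-sided permutation test is 0.333, and these ratios were not tested. How many of all tested genes have a ratio to TBK1 that is apart was not counted, so these ratios have no background share. TBK1 also has the lowest GC content of the tested members (39.3%). Its own log2 difference was −0.062 and −0.055 after the length and GC corrections described below.

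**Figure D2:**
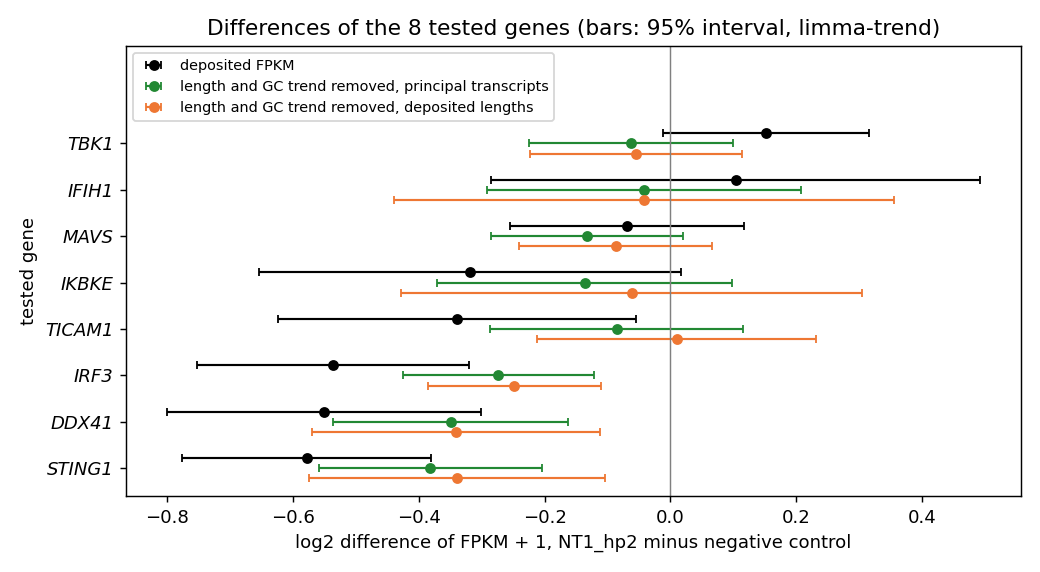
Log2 difference of FPKM + 1 (NT1_hp2 minus negative control) of each tested member with its 95% interval, from the deposited values (black) and after removal of trends with transcript length and GC content by principal transcripts (green) or deposited lengths (orange). STING1, DDX41 and IRF3 lie below 0 in all 3, at −0.58, −0.55 and −0.54 in black, and TICAM1 moves from −0.34 to 0.0098 in orange.

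The members differed in base composition, and the differences between groups went with it. GC content of the principal transcript was 63.0% for TICAM1, 61.5% for IRF3, 58.96% for DDX41, 58.7% for IKBKE and 56.8% for STING1, the 5 members with non-overlapping lower values. It was 52.1% for MAVS, 43.3% for IFIH1 and 39.3% for TBK1. Other genes also had lower differences at higher GC content. The 12148 of 16362 tested genes that have a principal transcript were divided into 5 equal groups by GC content, and the others were left out. The 2430 genes of the group of lowest GC content (31.8% to 41.3%) had a median log2 difference of 0.20, and it was 0.096, −0.027 and −0.19 in the next 3 groups and −0.31 in the highest (59.04% to 75.8%). In the fourth group, which holds STING1, DDX41 and IKBKE, 17.2% of genes passed as lower, and in the highest, which holds IRF3 and TICAM1, 28.8% did, against 0.741% in the lowest, which holds TBK1. STING1, DDX41 and IRF3 lay below the lower quartile of their own GC group (−0.35 in the fourth and −0.47 in the highest), while IKBKE and TICAM1 lay within the quartiles.

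When smooth trends with length and GC content were removed per library, the differences of the 3 members that fell became smaller. With principal transcripts they were −0.38 for STING1, −0.35 for DDX41 and −0.27 for IRF3, and all 3 still passed (limma-trend adjusted p = 0.0081, 0.0148 and 0.0170), beside 16.2% of 12148 tested genes that passed as lower. With deposited lengths they were −0.34, −0.34 and −0.25, and none passed (limma-trend adjusted p = 0.105, 0.1001 and 0.0750; unadjusted p in the same fit was below 0.05 for 4413 genes, and 1.71% of all genes passed). TBK1 went to −0.062 and −0.055, and IKBKE to −0.14 and −0.061. Removal of a trend with length alone left 3 members lower. The share of all tested genes that passed as lower, beside which the members' counts in other settings are read, was 19.9% with limma-voom, 0% without the filter, 16.3% where all libraries reached 1 CPM, 24.2% among protein-coding genes, 14.6% among genes of at least 300 bases, 9.69% after removal of the length trend, 1.03% after the correction with deposited lengths, 24.2% among genes with a principal transcript and 18.5% with at least 20 mean reads. It was 0% and 8.35% without replicates 1 and 3 of the control and 0.0257% and 0.0642% without replicates 2 and 3 of NT1_hp2.

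**Figure D3:**
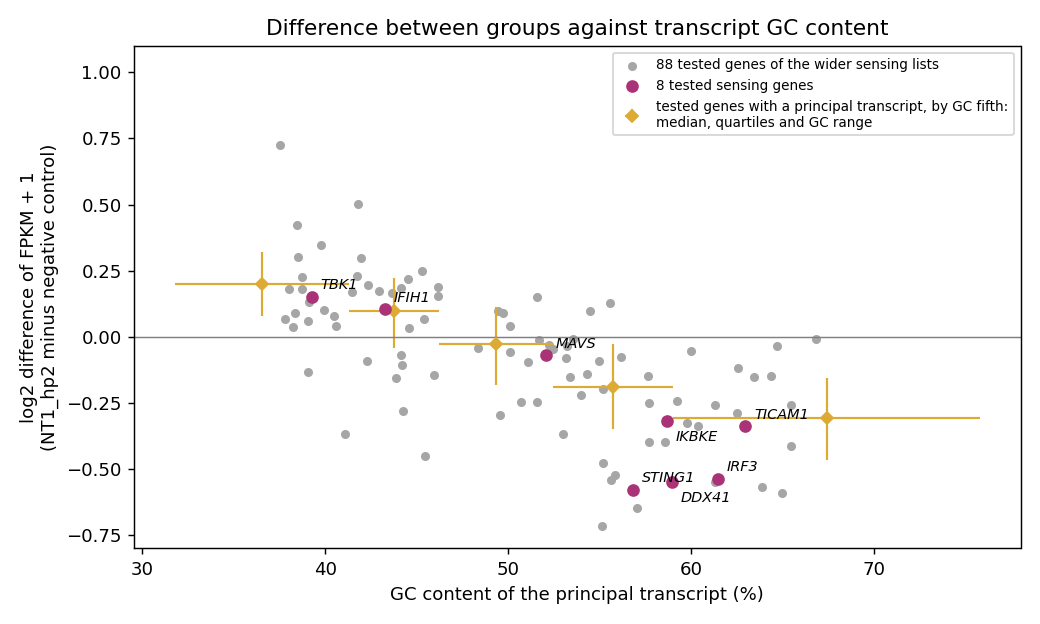
Log2 difference of FPKM + 1 between the groups against GC content of the principal transcript, for the 8 tested members (purple), 88 tested genes of the wider sensing lists (grey) and the 12148 tested genes with a principal transcript in 5 equal groups by GC content (gold, with median, quartiles and GC range). Gold medians run from 0.20 to −0.31, and STING1, DDX41 and IRF3 lie below the gold quartile bars.

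The rest of the pathway was described through 8 lists with 119 genes, of which 88 were tested. 3 rose and 10 fell, to be read against the 5% of all tested genes that passed as higher and the 8.92% that passed as lower. The counts of each list below are read against the same shares where no other setting is named. The median log2 difference was −0.055, beside −0.0075 over all tested genes and −0.33 over the 8 tested members. After the length and GC correction with principal transcripts the medians were −0.13 for the members and −0.079 for the wider lists, and with deposited lengths −0.074 and −0.031. The wider lists came to 0 calls without negative control replicate 1 and without either NT1_hp2 replicate.

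Among 15 other proposed DNA sensors 10 were tested, 1 rose and 1 fell. DHX36, a helicase that unwinds G-quadruplexes, rose from 7.58 and 8.39 FPKM to 11.5 and 10.6 FPKM (log2 difference 0.42, limma-trend adjusted p = 0.0416). It was at 0.13 after either length and GC correction and did not pass (limma-trend adjusted p = 0.2 and 0.233). With principal transcripts 0 of the 10 rose and 4 fell, beside 778 of 12148 tested genes that passed as higher and 16.2% as lower. HNRNPA2B1, an RNA-binding protein of the nucleus, fell from 118 and 103 FPKM to 80.4 and 80.02 FPKM (−0.45). AIM2, ZBP1, MNDA and PYHIN1, named here because they are the 4 listed at 0 in all libraries, are genes of the AIM2-like and Z-DNA sensor kind that immune cells use. Of 15 other RNA sensors 7 were tested and 1 fell, the inflammasome sensor gene NLRP1, from 3.37 and 3.24 FPKM to 1.90 and 2.10 FPKM (−0.52). RIGI, the sensor of short triphosphate RNA that also signals through MAVS, had 2.30 and 1.90 FPKM in the control and 2.11 and 2.43 FPKM in NT1_hp2, with overlapping groups.

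Among the other adaptors 0 of 10 tested genes passed, a count that depends on the setting. With limma-voom 6 passed, as did 6 with limma-trend among protein-coding genes alone, in each case 1 higher and 5 lower. Over all tested genes 2361 of 16361 passed as higher and 19.9% as lower with limma-voom. Among protein-coding genes 1778 of 12149 passed as higher and 24.2% as lower. The other kinases and factors gave 1 higher and 1 lower of 12. TAB2, which couples TRAF proteins to the kinase TAK1, rose from 20.9 and 21.4 FPKM to 27.1 and 27.2 FPKM (0.35), and its partner gene TAB1 fell from 12.3 and 12.02 FPKM to 9.45 and 9.39 FPKM (−0.34). Their principal transcripts have a GC content of 39.8% and 60.4%, and neither passed after the length and GC correction with principal transcripts, at 0.11 and −0.14. Of 14 tested co-factors 1 fell, PQBP1, a proposed co-sensor of viral DNA with cGAS, from 21.8 and 17.4 FPKM to 11.9 and 12.2 FPKM (−0.65).

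Genes for proteins that restrain sensing numbered 23 tested of 25, with 1 higher and 5 lower. ENPP1, the hydrolase that degrades cGAMP, rose from 4.52 and 4.93 FPKM to 7.39 and 6.84 FPKM (0.50, limma-trend adjusted p = 0.0355). BANF1, which coats DNA and limits access of cGAS, fell from 86.1 and 70.6 FPKM to 46.7 and 47.4 FPKM (−0.72, adjusted p = 0.0340). PCBP1, an RNA-binding protein that promotes turnover of MAVS, fell from 54.3 and 50.5 FPKM to 37.4 and 37.2 FPKM, and the lysosomal nuclease gene DNASE2 from 18.3 and 17.03 FPKM to 10.9 and 12.8 FPKM. TREX1, the main cytosolic DNA exonuclease, was listed at 0 in all 4 libraries. All of its exonic bases (100%) are shared with ATRIP on the same strand, so that value does not give its level.

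The interferon genes themselves were at or near 0. IFNB1 had 0 reads in every library, which allows a level of up to 0.243 to 0.278 FPKM at 3 reads. Of 17 interferon and directly induced genes 7 were tested and 0 passed. When either NT1_hp2 library was left out 6 were tested, against 7 when either control was. The tested genes thus include one that reached 1 FPKM only in NT1_hp2 and entered through the group where it is higher. Counts of genes called higher in this list are therefore given as a description only, in every setting. With limma-voom, and with limma-trend among protein-coding genes alone, 2 passed, in each case 1 higher and 1 lower, beside the shares given above for the adaptors. After the length and GC correction with principal transcripts 3 passed (2 higher, 1 lower). In that fit 778 of 12148 tested genes passed as higher and 16.2% as lower. IFIT1 had 2.94 and 2.50 FPKM in the control and 1.92 and 1.83 FPKM in NT1_hp2 (−0.37, limma-trend adjusted p = 0.0926). IFIT1 passed in 6 of 19 other settings, among them the correction with principal transcripts, at −0.51 (limma-trend adjusted p = 0.00599). ISG15, a ubiquitin-like protein, had 9.67 and 7.36 against 7.52 and 8.98 FPKM. It did not pass as deposited, but passed as higher after the correction with principal transcripts, at 0.40 (limma-trend adjusted p = 0.0102). With deposited lengths in that correction it was at 0.26 and did not pass (limma-trend adjusted p = 0.235). In the interferon receptor relay 1 of 5 tested genes fell, the Janus kinase gene TYK2, from 21.0 and 19.2 FPKM to 13.5 and 13.4 FPKM (−0.55).

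**Figure D4:**
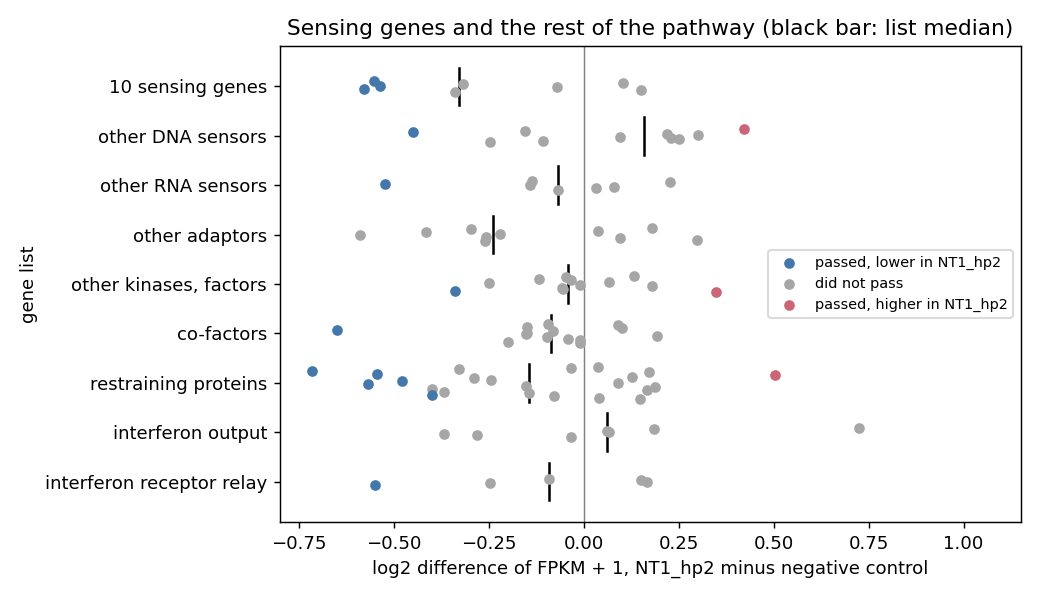
Log2 difference of FPKM + 1 for each tested gene of the 10 members and the 8 wider lists, with genes that passed the test as lower (blue) or higher (red) in NT1_hp2, genes that did not pass (grey) and the median of each list (black bar). The members' median is −0.33, the other DNA sensors have a median of 0.16, and no interferon output gene is coloured.

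Likeness over the 4 libraries was measured as the root mean square distance between centred log2(FPKM + 1) values and the mean centred profile of the 8 tested members. Of 88 tested genes of the wider lists, the nearest were IRF5 (distance 0.028), OTUD5 (0.035) and TAB1 (0.038). IRF5 had 1.32 and 1.36 FPKM in the control and 0.939 and 0.998 FPKM in NT1_hp2, and the deubiquitinase gene OTUD5 had 27.8 and 26.9 against 22.0 and 23.9 FPKM. Neither passed the test. IRF5 reached 1 FPKM only in the control, so it entered the compared genes through the group where it is higher, which favours likeness to this profile. The profile has only 4 points and is set largely by the difference between the groups.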

How the data were processed

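RNA was sequenced in 4 libraries of HEK293A cells (2 negative control, 2 NT1_hp2), grouped by their titles. Per the labels' protocols, 300000 cells were seeded per well 24 h before transfection, RNA was prepared after 72 h, and 1 µg entered a NEBNext Ultra kit. The authors deposited 1 value per gene and library, taken as FPKM from the values, since the headers name only gene and library. The build is GRCh38.p12 per the submitters' processing notes, whereas aligner, counter and scaling are not stated there or in the labels used here. Multiplied by summed exon length in GENCODE 29, 100% of values above 0 were whole multiples of 1 step per library within 0.01, which gave reads. The implied library size was 0.966 to 1.04 times the total. No 2 files were identical (0 pairs). Symbols were taken for 58207 of 58736 features.

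Genes that reached 1 FPKM in 2 or more libraries entered limma 3.58.1 in R 4.3.3 (limma-trend, robust shrinkage, log2(FPKM + 1)), in place of a count test because the unit is FPKM. The test was tried on simulated data, where it first exceeded the limit set for false calls. A scaling error in the simulation was then corrected, but the excess did not go away and lay almost wholly in genes of under 20 mean reads. The limit was afterwards applied only to genes with at least 20 mean reads, where it was met, and that minimum was added as an alternative. Counts over all genes and over the lists can therefore hold more false calls than the threshold implies. Every tested member has at least 74 reads per library. Trends with length and GC content were removed with mgcv 1.9.3 while the mean of each library was kept. Read ratios have exact binomial intervals at 95%. The members, lists and rules were chosen with earlier results of these data known. Named besides the members were up to 4 genes per list by smallest p among those that passed, RIGI, TREX1, IFNB1, IFIT1 and ISG15, and the 3 most alike. Cell type markers and genes listed at 0 were named in addition, after values were seen.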

Additional observations from a re-analysis of the deposited data

How the results depend on the processing

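The counts below are genes that passed over all genes, then members, then wider lists, beside 2278, 3 and 13 as reported. They were 5617, 4 and 34 with limma-voom, 0, 0 and 0 without the filter on low values (6778 genes had an unadjusted p under 0.05), 4194, 4 and 23 where all libraries reached 1 CPM, 4716, 5 and 29 for protein-coding genes, 3582, 3 and 22 for genes of at least 300 bases, and 2751, 3 and 21 after the length and GC correction with principal transcripts. Settings added after seeing the data gave 279, 0 and 0 with deposited lengths in that correction, 4717, 5 and 29 for genes with a principal transcript uncorrected, and 4272, 4 and 25 with at least 20 mean reads. Leaving out 1 library in turn, with the lone library assumed to vary like the other group, gave 0 to 1854, 0 to 3 and 0 to 13. STING1, DDX41 and IRF3 kept a lower value in all 19 alternatives and passed in 14 of them. The fits that changed the sign of a difference that had not passed were few. After the length and GC correction with principal transcripts and with deposited lengths, the values were −0.042 and −0.042 for IFIH1, −0.062 and −0.055 for TBK1, −0.14 and −0.091 for RIGI, and 0.40 (limma-trend adjusted p = 0.0102) and 0.26 for ISG15. With deposited lengths alone IRF5 was at 0.0094 and TICAM1 at 0.0098. With library totals MAVS was at 0.0042 and ISG15 at 0.036. With 1 library left out, RIGI ranged from −0.013 (leaving out control replicate 3) to 0.17 and ISG15 from −0.21 to 0.14, with ISG15 above 0 when control replicate 1 (0.14) or NT1_hp2 replicate 2 (0.080) was left out. Where a count or sign moved, the cause was not tested, apart from fewer genes tested or fewer libraries. No genome sequence was used, so the planned correction with deposited lengths used length alone, and GC content came from annotated transcripts. No paired analysis was possible because the groups share only replicate number 3. Depth limits CGAS, IFI16 and IFNB1, for which changes were not detectable at these reads.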

Other observations

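One interferon-inducible chemokine gene, chosen after its values were seen, went the other way from most members. CXCL10 had 0.709 and 0.541 FPKM in the negative control and 1.32 and 2.10 FPKM in NT1_hp2, from 20 and 57 summed reads. It reached 1 FPKM only in NT1_hp2, so it entered the test of all genes through the group where it is higher. It was picked for these values, so they are a description and no test result is given for this gene alone. IFNL1, an interferon lambda gene, had 0 reads in the control and 4 reads in NT1_hp2, 2 in each library. MYD88, the adaptor of most Toll-like receptors, was under 1 FPKM in every library, with 34 and 20 summed reads.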
